A study of Mus musculus with 4 samples.

Results

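Collagen genes were followed in 3T3-L1 cells, a mouse preadipocyte line, after 48 hours of adipogenic induction with or without berberine. The members were the probes whose gene symbol, case ignored, begins with Col, a number, a and a number, which gave 50 of the 26423 probes in the table. Both probes of Cert1, a ceramide transfer protein whose older symbol is COL4A3BP, met the rule by name and were kept apart, since that gene encodes no collagen chain. The remaining 48 probes stood for 42 collagen genes among 17734 genes in all, and each gene was read from its brightest probe, by the mean of the 4 arrays. Of these genes, 11 were fibrillar, 6 belonged to type IV of basement membranes, 5 to type VI, 9 to the fibril-associated class (FACIT), 4 to the transmembrane class and 7 to other classes. Col6a5, Col21a1 and Col26a1 were not analysed here.

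The control group was 2 arrays of cells induced with insulin (1 µg/ml), dexamethasone (1 µM) and isobutylmethylxanthine (0.5 mM), and the berberine group was 2 arrays of cells given the same mixture with 13.47 µM berberine, a plant alkaloid. Both groups thus carry the inducing hormones, and no array of uninduced cells was analysed here. The cells are 1 clonal line, and the labels do not say whether the 2 samples of a group were separate cultures. Every limma p-value therefore rests on the spread between the 2 arrays within each group, drawn towards the spread of all probes. That spread may be purely technical.

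A collagen is built from 3 chains wound into a triple helix, with glycine at regular steps along the helical part. Fibrillar collagens are cut at both ends after secretion and pack into fibrils, type IV forms the sheet-like network of basement membranes, type VI forms beaded microfilaments around cells, FACIT collagens sit on the surface of fibrils, and transmembrane collagens are anchored in the plasma membrane. Preadipocytes lay down a fibroblast-type matrix rich in types I, III, V and VI. Maturing adipocytes surround themselves with a type IV basement membrane, and type VI is prominent in adipose tissue.

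Levels below are log2 intensities after quantile normalization, and changes are berberine minus control, so that a negative value is lower with berberine. A call is an adjusted p under 0.05 in limma's fit over all 26408 probes fitted. A level of 6.57 on the log2 scale, the 25th percentile, served as a floor: a fold is written "at least" if the dimmer group was below this floor, and left out if both groups were. Probes differ in brightness for reasons of their own, so each gene was compared with itself only. Control arrays correlated with each other at r = 0.991 across probes, berberine arrays at 0.994, and arrays of different groups at 0.912 to 0.918.

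Upstream sequences were taken from RefSeq (GRCm38.p6), in which 34 of the 42 genes had an entry. The 250 bases before the start are printed for 5 genes with differing calls here: Col8a1 and Col1a2, which rose, Col3a1 and Col6a1, which fell, and Col6a2, the neighbour of Col6a1, whose difference did not pass. Capitals mark the GC box (GGGCGG), the CCAAT box (CCAAT) and the TATA box (TATAAA), each searched on both strands with no overlap between motifs, so a GC box on the other strand reads CCGCCC. The positions are chr16:57754738-57754987 on the minus strand for Col8a1, chr6:4505368-4505617 on the plus strand for Col1a2, chr1:45311288-45311537 on the plus strand for Col3a1, chr10:76726045-76726294 on the minus strand for Col6a1 and chr10:76623631-76623880 on the minus strand for Col6a2.
Col8a1: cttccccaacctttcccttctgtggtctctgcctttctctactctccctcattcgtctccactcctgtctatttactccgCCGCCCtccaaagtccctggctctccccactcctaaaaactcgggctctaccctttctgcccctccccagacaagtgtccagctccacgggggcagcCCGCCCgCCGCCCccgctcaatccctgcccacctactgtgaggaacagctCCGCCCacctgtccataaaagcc
Col1a2: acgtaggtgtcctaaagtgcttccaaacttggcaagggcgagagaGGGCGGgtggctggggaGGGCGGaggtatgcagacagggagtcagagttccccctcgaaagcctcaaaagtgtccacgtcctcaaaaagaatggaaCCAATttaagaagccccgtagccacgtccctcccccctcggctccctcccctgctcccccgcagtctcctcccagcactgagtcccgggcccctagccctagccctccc
Col3a1: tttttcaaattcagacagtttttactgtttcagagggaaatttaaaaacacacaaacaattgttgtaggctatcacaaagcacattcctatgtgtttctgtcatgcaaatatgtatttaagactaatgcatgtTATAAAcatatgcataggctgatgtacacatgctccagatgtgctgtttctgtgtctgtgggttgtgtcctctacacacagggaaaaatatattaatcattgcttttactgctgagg
Col6a1: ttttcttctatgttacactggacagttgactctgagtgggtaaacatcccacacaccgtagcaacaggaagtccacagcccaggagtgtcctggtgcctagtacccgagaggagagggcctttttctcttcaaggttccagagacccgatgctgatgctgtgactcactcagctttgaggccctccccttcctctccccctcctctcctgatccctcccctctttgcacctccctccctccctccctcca
Col6a2: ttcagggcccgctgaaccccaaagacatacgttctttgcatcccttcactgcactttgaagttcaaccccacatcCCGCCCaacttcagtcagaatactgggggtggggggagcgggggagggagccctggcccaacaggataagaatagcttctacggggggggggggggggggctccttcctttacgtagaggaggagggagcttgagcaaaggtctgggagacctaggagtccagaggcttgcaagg

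The window of Col8a1 held 4 GC boxes and that of Col1a2 held 2 with 1 CCAAT box. Col3a1 had a TATA box alone in a stretch of 35.2% G and C, Col6a1 had none of the motifs, and Col6a2 had 1 GC box. Over all genes with an upstream sequence, a GC box was found in 35.4%, a CCAAT box in 37.5% and a TATA box in 14.3%, against 58.8%, 38.2% and 14.7% of the 34 collagen genes. A GC box was present in 7 of 8 collagen genes called higher and 2 of 6 called lower that had a sequence. The shares among all genes called higher or lower were not computed, so this split has no background. Several of these calls were lost under other scalings. Col4a5, among the 8, was called lower at its other probe, and Col4a1, among the 6, changed sign after centring. The shares count a motif in the window of any start listed for a gene, while the printed sequences come from the most upstream start. These are matches of letters and carry no test.

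Collagen genes moved in both directions with berberine. Of the 42 genes, 7 were lower (16.7%) and 10 higher (23.8%), and 25 did not pass. Col4a5, counted among the higher by its brighter probe, was called lower at its other probe. Over all 17734 genes 18.2% were called lower and 30% higher, so the collagen shares lay near or below those of all genes. By probe, 8 of the 48 were lower and 12 higher, against 17.7% and 27.1% of all probes. The median log2 change was 0.12 for collagen genes and 0.20 for all genes. Both berberine arrays lay below both control arrays at 11 collagen genes and above them at 20, against 28.3% and 49.2% of all genes. By probe these counts were 12 and 23, against 28.2% and 46.6% of all probes. Among the genes above the floor in both groups, changes ran from -2.11 (Col6a3) to 1.77 (Col8a1). By fitted values 0 of the 42 fell at least 8-fold, against 2.89% of all genes. The scaling of the arrays set the balance between higher and lower calls: over all probes 7164 were higher and 4674 lower, with 2396 and 4291 in the deposited values and 10694 and 3311 after centring on the median. The median change of all genes was then -0.02 and 0.55, and 0.29 after scaling on the 75th percentile.

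**Figure D1:**
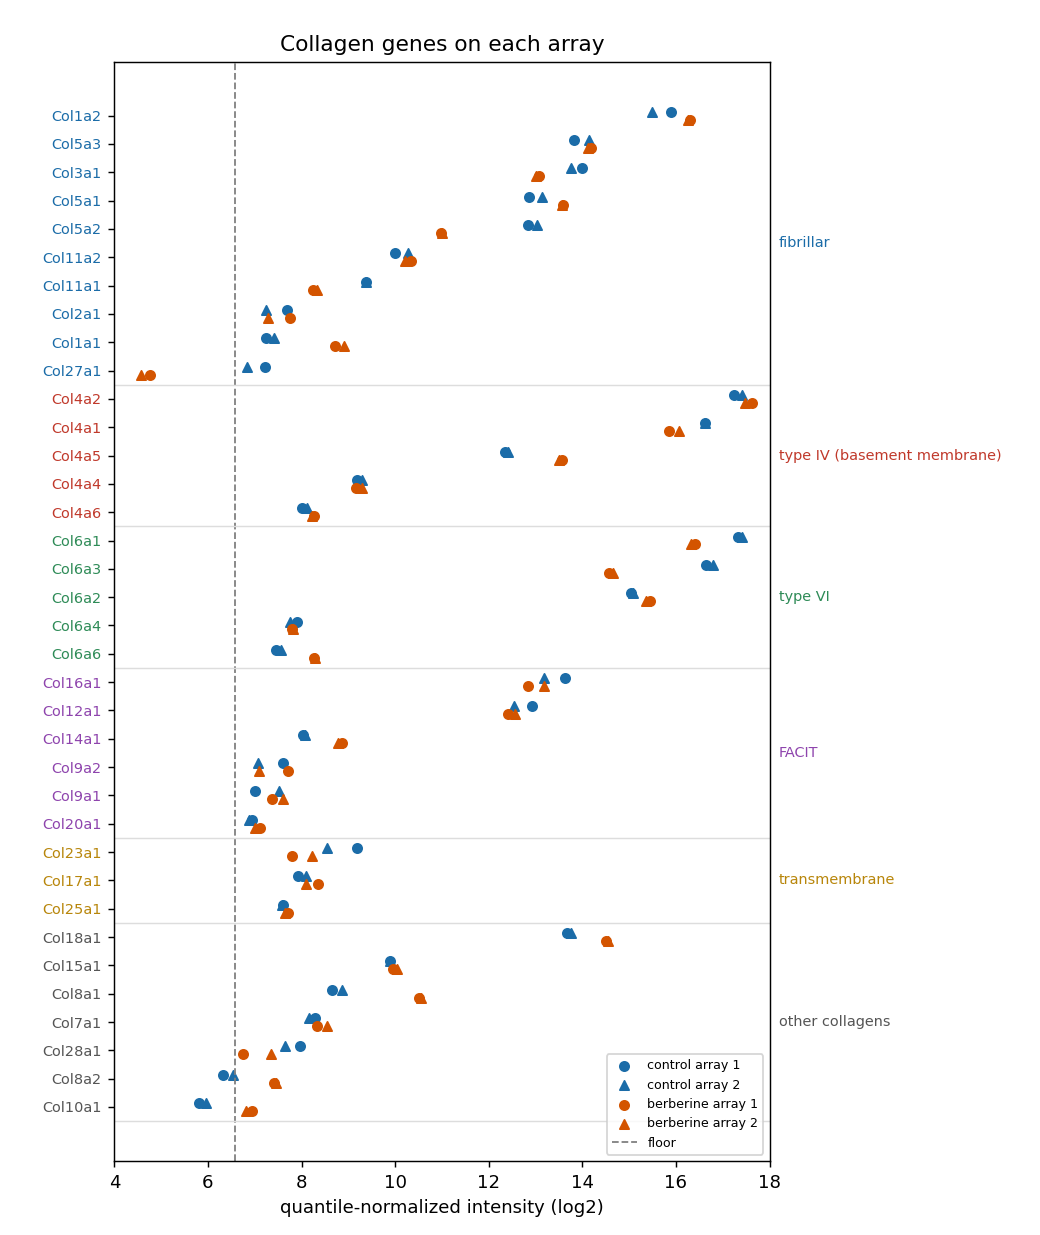
Quantile-normalized log2 intensity (x axis) of the 36 collagen genes above the floor in at least 1 group, 1 gene per line grouped by class, with blue symbols for the 2 control arrays, orange for the 2 berberine arrays and a dashed line at the floor of 6.57. Replicate arrays lie close together, and the widest gaps between groups are at Col6a3, Col5a2, Col27a1 and Col8a1.

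In 36 of the 42 genes at least 1 group had a mean above the floor. The other 6, namely Col4a3, Col13a1, Col19a1, Col22a1, Col9a3 and Col24a1, gave no fold and no call at the probe used, although a second, dimmer Col24a1 probe was called higher under the floor. Replicates of a collagen gene differed by a median of 0.167 on log2 between the control arrays and 0.12 between the berberine arrays. The call was kept in all alternatives run for 6 of 17 genes: Col5a2, Col6a3, Col11a1 and Col27a1 among the lower and Col1a1 and Col8a1 among the higher. Leaving out berberine replicate 1 kept 8 of the 17 calls and leaving out replicate 2 kept 6, where the single berberine array was taken to vary as the control group did. The higher count was 5 in the deposited values and 14 after centring, and the lower count 7 and 4. Sizes moved with the scaling also where calls were kept. Log2 changes in the deposited values and after centring were -2.07 and -1.5 for Col5a2 and -1.98 and -1.41 for Col6a3. They were -1.69 and -1.13 for Col11a1, 0.98 and 1.55 for Col1a1 and 1.22 and 1.79 for Col8a1. Col27a1 fell under the floor with berberine.

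**Figure D2:**
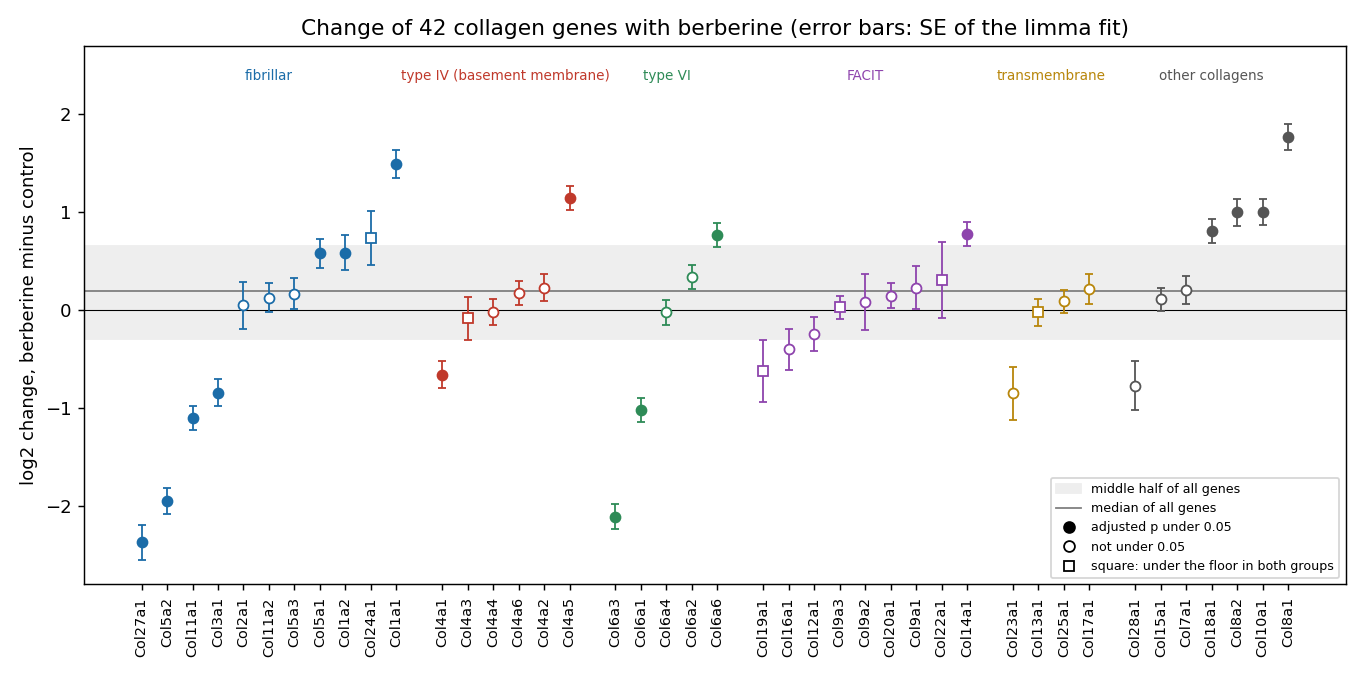
Log2 change (berberine minus control, y axis) of the 42 collagen genes by class, with the SE of the limma fit as error bars, filled symbols for adjusted p under 0.05, squares for genes under the floor in both groups, and a grey band for the range between the quartiles of all genes (-0.29 to 0.66). Genes with 1 group under the floor (Col27a1, Col8a2 and Col10a1) are drawn at fitted values, which are not bounds, and called genes lie on both sides of the band in the fibrillar, type IV and type VI classes.

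Among fibrillar collagens, 4 of 11 were lower and 3 higher, with a median log2 change of 0.13. Over all genes 18.2% were lower and 30% higher, the shares beside which each class count below is to be read. Col5a2, a chain of type V, which starts and limits the growth of type I fibrils, read 12.84 and 13.04 in control and 10.97 and 11.01 with berberine. It was lower on both berberine arrays and fell 3.86-fold (adjusted p = 0.000619, log2 change -1.95, SE 0.135). Its partner chain Col5a1 read 12.86 and 13.13 in control and 13.58 and 13.56 with berberine, a 1.49-fold rise (adjusted p = 0.0301). That rise was lost without either berberine array and in the deposited values (adjusted p up to 0.170, from 0.00339). The remaining type V chain, Col5a3, read 13.82 and 14.14 in control and 14.19 and 14.12 with berberine, so that its groups overlapped (log2 change 0.17, 95% interval -0.24 to 0.58, adjusted p = 0.423, and 0.92 after centring, adjusted p = 0.0100).

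Col3a1, the chain of type III collagen found in fibrils of soft tissues, read 14 and 13.76 in control and 13.07 and 13.01 with berberine, so the groups did not overlap. This 1.79-fold fall (adjusted p = 0.00853) was lost under each other scaling and without either berberine array, with log2 changes of -0.69 in the deposited values and -0.12 after centring. Col3a1 and Col5a2 are adjacent genes on chromosome 1, and both were called lower. Col11a1, a chain of type XI, which is best known from cartilage fibrils, read 9.37 and 9.38 in control and 8.24 and 8.32 with berberine, a 2.14-fold fall (adjusted p = 0.00228). Col11a2 of the same type read 10.00 and 10.27 in control and 10.33 and 10.20 with berberine, with overlapping groups (log2 change 0.13, 95% interval -0.26 to 0.52). Col27a1, another fibrillar collagen of cartilage, was dim, at 7.22 and 6.84 in control, and fell under the floor at 4.76 and 4.57 with berberine, at least 1.37-fold (adjusted p = 0.000802).

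Both chains of type I collagen, the main fibril former of connective tissue, were called higher. The Col1a2 probe read 15.89 and 15.48 in control and 16.30 and 16.25 with berberine, a 1.51-fold rise whose adjusted p of 0.0463 lay just under the threshold. The call was lost in the deposited values, without control replicate 2 and without either berberine array (adjusted p up to 0.219, from 0.00669), while the sign was positive in all of these. The Col1a1 probe was dim, at 7.23 and 7.40 in control and 8.71 and 8.91 with berberine, a 2.81-fold rise (adjusted p = 0.00155, log2 change 1.49, SE 0.144). Col2a1, the cartilage collagen, gave 7.68 and 7.24 against 7.75 and 7.28, and its groups overlapped (adjusted p = 0.873).

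Of the 6 type IV genes of basement membranes, 1 was lower and 1, Col4a5, higher by its brighter probe alone, with a median of 0.08. Col4a1 and Col4a2, which encode the chains found in nearly all basement membranes, sit head to head as adjacent genes on chromosome 8. The Col4a2 probe read 17.23 and 17.40 in control and 17.63 and 17.47 with berberine, where the berberine arrays were both higher by a margin that did not pass (log2 change 0.23, 95% interval -0.12 to 0.59, adjusted p = 0.226). After centring it was 0.72 and did pass (adjusted p = 0.0237). The Col4a1 probe read 16.61 on both control arrays and 15.84 and 16.06 with berberine, a 1.58-fold fall (adjusted p = 0.0166). That call did not hold in the deposited values, after scaling on the 75th percentile or without any 1 of the 4 arrays, and its sign turned after centring (log2 change 0.06, adjusted p = 0.741, in a range from 0.00798 to 0.741).

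Chains of the more restricted type IV networks were read by more than 1 probe. At Col4a5, a chain of kidney and smooth muscle basement membranes, the brighter probe rose from 12.34 and 12.42 to 13.56 and 13.49, 2.22-fold (adjusted p = 0.00209), a call that was narrowly lost without berberine replicate 2 (adjusted p = 0.0505, in a range from 9.06e-05 to 0.0505). The other Col4a5 probe read 12.23 and 11.86 in control and 11.52 and 11.28 with berberine and was called lower (log2 change -0.64, adjusted p = 0.0426), so the 2 probes of this gene gave opposite directions and no direction can be given for the gene as a whole. At Col4a6, the neighbour of Col4a5 on the X chromosome, the probe used did not pass (8.01 and 8.12 against 8.27 and 8.22), while a dimmer one did (6.75 and 6.97 against 7.83 and 7.70, adjusted p = 0.00687). The Col4a4 probe used read 9.18 and 9.30 in control and 9.16 and 9.29 with berberine, and its other 2 probes lay under the floor. In all, 5 collagen genes had several probes and 37 had 1, so most directions here could not be checked on a separate probe.

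In type VI, 2 of 5 genes were lower and 1 higher, with a median of -0.02. Col6a3, the chain whose cut-off end circulates as endotrophin, read 16.65 and 16.80 in control and 14.57 and 14.66 with berberine. Both berberine arrays were well below both controls, a 4.33-fold fall (adjusted p = 0.000441, log2 change -2.11, SE 0.129). Col6a1 read 17.33 and 17.42 in control and 16.40 and 16.31 with berberine, a 2.03-fold fall (adjusted p = 0.00318) that was lost after centring, with 75th percentile scaling and without berberine replicate 2 (adjusted p up to 0.0962, from 0.000304). Its log2 change was -0.41 after centring. Col6a2, the remaining chain of the common type VI molecule, read 15.04 and 15.08 in control and 15.44 and 15.36 with berberine. The berberine arrays were both higher, but the difference did not pass (log2 change 0.34, 95% interval 0.02 to 0.65, adjusted p = 0.0778), and it passed after centring (1.11, adjusted p = 0.00503). Col6a1 and Col6a2 are adjacent genes on chromosome 10.

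The later-described type VI chains were dim. The Col6a6 probe used rose from 7.46 and 7.57 to 8.26 and 8.29, 1.70-fold (adjusted p = 0.00725), and this was lost in the deposited values, after scaling on the 75th percentile and without either berberine array (adjusted p up to 0.491, from 0.00241). The dimmer Col6a6 probe had overlapping groups (7.23 and 6.69 against 8.08 and 7.23). Col6a4 read 7.90 and 7.75 in control and 7.79 and 7.82 with berberine, without separation of the groups.

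Chains that assemble into the same collagen were then compared within each array, by the log2 ratio between the 2 probes. A single scaling factor per array cannot alter this ratio, but quantile normalization can. Ratios below are after quantile normalization unless the deposited values are named. The pairs were chosen after the values were seen. The ratio of Col5a1 to Col5a2 was 0.02 and 0.09 in control and 2.61 and 2.55 with berberine, a 5.77-fold difference. The ratio of Col6a3 to Col6a2 went from 1.61 and 1.71 to -0.88 and -0.70, a 5.47-fold difference, and that of Col6a1 to Col6a2 from 2.29 and 2.34 to 0.96 on both berberine arrays, a 2.56-fold difference. The ratio of Col6a3 to Col6a1 went from -0.68 and -0.63 to -1.83 and -1.66. The ratio of Col4a1 to Col4a2 went from -0.63 and -0.79 to -1.79 and -1.41. After quantile normalization, in each of the 7 pairs whose chains were both above the floor in both groups, the berberine arrays lay beyond both control arrays. Single genes were so separated in 28.3% (lower) and 49.2% (higher) of cases, and the share for other pairs of genes was not computed. The exact permutation p, two-sided, was 0.333, the smallest that 2 arrays against 2 can give. From the deposited values without quantile normalization, the differences on log2 were 2.78, -2.52, -1.51, -1.0 and -0.66 for these pairs in the order given, the same signs as after it. For type I the ratio of Col1a1 to Col1a2 was higher with berberine by 0.90 after quantile normalization and by 0.19 in the deposited values. In the deposited values the 2 groups overlapped for this ratio. The ratio of Col11a1 to Col11a2 differed by -1.22, and by -1.29 in the deposited values. No ratio is given for type VIII, since Col8a2 lay under the floor in control.

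**Figure D3:**
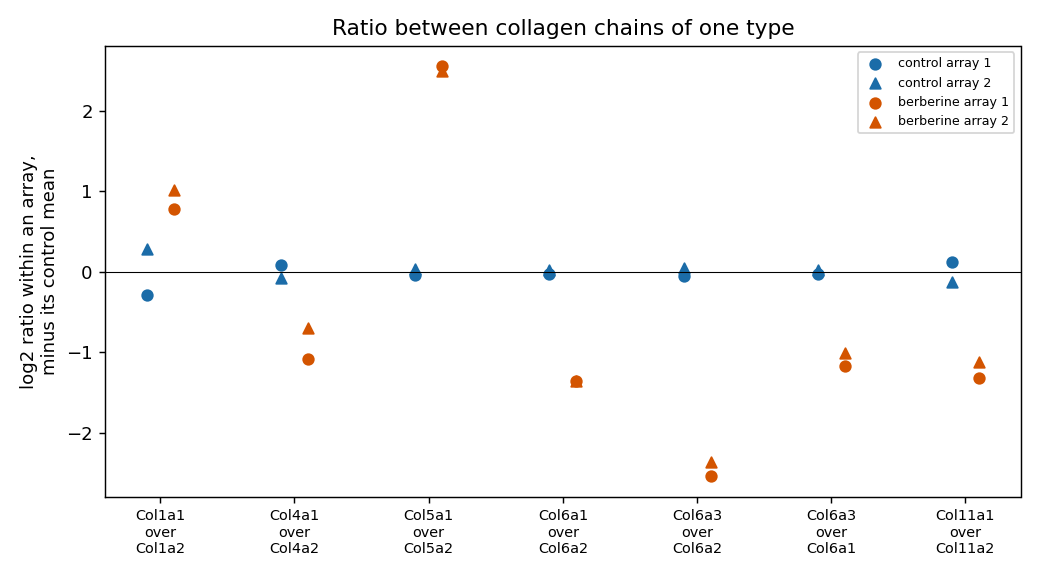
Log2 ratio, after quantile normalization, between the probes of 2 chains of one collagen type within each array, minus the mean ratio of the control arrays (y axis), for 7 pairs, with blue symbols for control and orange for berberine arrays. The control arrays stay near 0 while the berberine arrays move by 2.53 for Col5a1 over Col5a2 and by -2.45 for Col6a3 over Col6a2.

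FACIT collagens mostly did not pass: of 9 genes 1 was higher and 0 lower, with a median of 0.08, and 3 lay under the floor. At an unadjusted p under 0.05 in the same limma fit the only FACIT gene was the one called. That gene was Col14a1, which binds fibrils in skin and tendon. It read 8.02 and 8.07 in control and 8.87 and 8.78 with berberine, a 1.72-fold rise (adjusted p = 0.00684) that was lost in the deposited values, after scaling on the 75th percentile and without either berberine array (adjusted p up to 0.618, from 0.00227). Col12a1, its close relative in dense connective tissue, read 12.92 and 12.54 in control and 12.42 and 12.56 with berberine, with overlapping groups (95% interval -0.70 to 0.21). Col16a1 read 13.62 and 13.19 in control and 12.84 and 13.18 with berberine, lower on both arrays by a margin that did not pass (log2 change -0.40, adjusted p = 0.187). Col9a1, Col9a2 and Col20a1 were between 6.87 and 7.71 on all 4 arrays, and none passed.

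No transmembrane collagen was called by limma, and 1 of the 4, Col23a1, had an unadjusted p under 0.05. Col23a1 read 9.18 and 8.54 in control and 7.80 and 8.23 with berberine, lower on both arrays (log2 change -0.85, adjusted p = 0.0586). It passed in the deposited values, after scaling on the 75th percentile, without dim probes and with the replicate block (adjusted p = 0.0057 to 0.0411). Col17a1, a hemidesmosome collagen of epithelia, gave 7.93 and 8.09 against 8.35 and 8.10, and Col25a1 7.60 and 7.59 against 7.71 and 7.65. Neither passed, and Col13a1 lay under the floor.

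The 7 other collagens held 4 of the 10 rises and 0 of the falls, with a median log2 change of 0.81. Over all genes 30% were called higher and 18.2% lower, and no test of the class was run. Col8a1, a short-chain network collagen of vessel walls, read 8.65 and 8.86 in control and 10.50 and 10.55 with berberine, a 3.41-fold rise (adjusted p = 0.000842, log2 change 1.77, SE 0.137). Its partner chain Col8a2 rose from 6.31 and 6.54, under the floor, to 7.40 and 7.46, at least 1.81-fold (adjusted p = 0.00479), a call that the deposited values, and the fits without berberine replicate 1 or 2, did not give. Col10a1, the structurally related collagen of hypertrophic cartilage, rose from 5.81 and 5.95 to 6.95 and 6.82, at least 1.24-fold (adjusted p = 0.00403). Col18a1, a basement membrane collagen with heparan sulfate chains whose end yields endostatin, read 13.67 and 13.75 in control and 14.51 and 14.54 with berberine. This was a 1.75-fold rise (adjusted p = 0.00579). The calls of Col10a1 and Col18a1 were lost without either berberine array (adjusted p up to 0.0610 and 0.0793).

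Col15a1, the relative of Col18a1, read 9.89 and 9.88 in control and 9.95 and 10.04 with berberine, and Col7a1, the anchoring fibril collagen of skin, 8.29 and 8.15 against 8.32 and 8.54. Neither difference passed. Col28a1 read 7.97 and 7.65 in control and 6.74 and 7.34 with berberine, lower on both arrays (adjusted p = 0.0577), and passed in the deposited values, without dim probes, with the replicate block and with an intensity trend (adjusted p = 0.00806 to 0.0448). The gene kept apart, Cert1, fell at its brighter probe (13.13 and 13.22 against 12.49 and 12.53, adjusted p = 0.0109) and did not pass at the other (adjusted p = 0.254).

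Brightness in control was next taken into account. The level came from the control arrays alone, so a gene that falls can enter the bright set through the group where it is high. Dim genes also have little room to fall above the floor. A larger share of strong falls among bright genes is thus partly fixed by this choice, which was the same for collagen and all genes. Of the 15 collagen genes above log2 10 in control, 5 were lower and 4 higher, and 0 fell at least 8-fold. Among all 7503 genes above that level 27.8% were lower, 32.4% higher and 6.02% fell at least 8-fold. Of the 27 dimmer collagen genes 2 were lower and 6 higher, against 11.1% and 28.3% of all 10231 genes at or under that level.

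**Figure D4:**
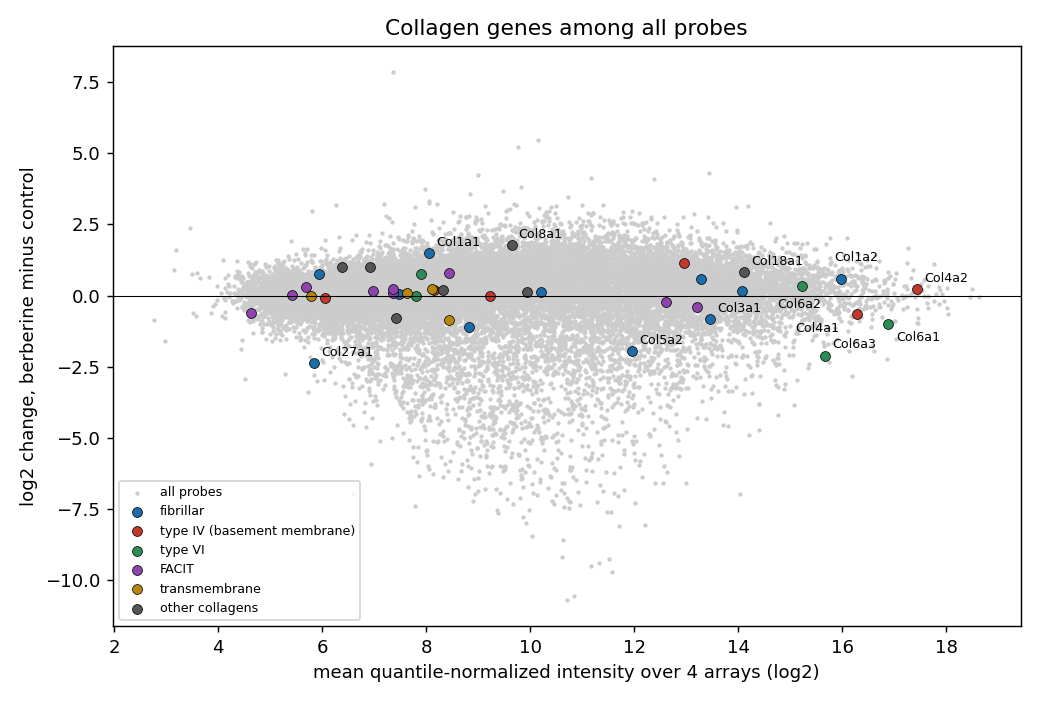
Log2 change (berberine minus control, y axis) against the mean quantile-normalized log2 intensity over the 4 arrays (x axis), with all probes in grey and the 42 collagen genes coloured by class. Genes under the floor in a group, such as Col27a1, are drawn at fitted values, and collagen genes above it in both groups lie between -2.11 and 1.77.

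Genes that act on collagen after translation moved in both directions as well. Of 64 genes on 6 lists, 63 were measured, and 22 were lower (34.9%) and 21 higher (33.3%). Over all genes these shares were 18.2% and 30%, and over genes above log2 10 in control, as 40 of the 63 were, 27.8% and 32.4%. Without berberine replicate 1 or 2 these counts were 14 and 6, and 10 and 5. Of 15 genes that hydroxylate or glycosylate the chains, 4 were lower and 4 higher. P3h4, which helps lysyl hydroxylation, read 13.61 and 13.81 in control and 11.20 and 11.11 with berberine, a 5.88-fold fall (adjusted p = 0.000303), and Plod2, a lysyl hydroxylase of the chain ends, fell 2.74-fold (adjusted p = 0.00184, and 0.0547 without berberine replicate 2). P3h3, of the prolyl 3-hydroxylase family, rose 3.17-fold, from 11.30 and 11.26 to 12.96 and 12.92. P4ha2, a catalytic subunit of prolyl 4-hydroxylase, was called higher at its brightest probe (log2 change 0.84, not called in the deposited values or without either berberine array) but lower at its other 2, at least 17.4-fold and at least 30.1-fold. P3h1 did not pass at its brighter probe (log2 change 0.07) and fell at least 23.3-fold at the other.

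Among 10 folding and export genes, 5 were higher and 0 lower, against 30% and 18.2% of all genes. Of the 5 others 1, Serpinh1, had an unadjusted p under 0.05 in limma. Fkbp14, a prolyl isomerase of the endoplasmic reticulum, read 8.56 and 9.11 in control and 11.94 and 11.96 with berberine, an 8.71-fold rise (adjusted p = 0.00058). Sec24d, a coat protein for export of procollagen, rose 2.38-fold, Creb3l1, a transcription factor of the secretory route, 2.45-fold and Mia2, an export receptor, 2.09-fold. The call of Sec24d was lost without berberine replicate 2 and those of Creb3l1 and Mia2 without either berberine array. Serpinh1, the collagen chaperone HSP47, read 16.21 and 16.23 in control and 15.88 and 15.79 with berberine (adjusted p = 0.0562).

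Of 9 propeptide cleavage genes, 4 were lower and 2 higher, against 18.2% and 30% of all genes. Pcolce, which enhances removal of the carboxyl-terminal propeptide, read 17.08 and 16.66 in control and 12.72 and 12.59 with berberine, an 18.6-fold fall (adjusted p = 0.000181, log2 change -4.22, SE 0.18). Its relative Pcolce2 fell 2.96-fold and Tll1, a protease of the same step, 4.98-fold. Bmp1, the main protease of that step, rose 2.0-fold, from 12.59 and 12.46 to 13.53 and 13.52 (adjusted p = 0.00336). Neither fit that left out a berberine array called it.

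All 5 lysyl oxidases, which cross-link collagen, were called, 2 lower and 3 higher, where 48.2% of all genes were called in either direction. Lox read 15.66 and 15.78 in control and 14.95 and 14.96 with berberine, a 1.70-fold fall (adjusted p = 0.00738) that was lost under the other scalings and without either berberine array, with a log2 change of 0.01 after centring. Loxl3 fell at least 3.92-fold (adjusted p = 0.00039). Loxl4 rose 4.93-fold, from 11.64 and 11.38 to 13.75 and 13.87, and again at its second probe (log2 change 1.67), but not at the remaining one (-0.12). Loxl2 rose 1.92-fold, a call lost in the deposited values and without either berberine array.

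Proteins that bind collagen fibrils were the list with most falls: 10 of 14 were lower, Comp among them under the floor in both groups, and 2 higher, with a median of -1.33. Over all genes 18.2% were lower and 30% higher, and over genes above log2 10 in control 27.8% and 32.4%. The proteoglycans decorin, lumican and osteoglycin, which coat fibrils, fell 7.84-fold (Dcn, from 16.47 and 16.75 to 13.62 and 13.66), 8.41-fold (Lum, from 13.29 and 13.23 to 10.11 and 10.27) and 3.64-fold (Ogn, lost without either berberine array). The second Dcn probe fell at least 652-fold. Fn1, fibronectin, fell at least 328-fold at its probe. Of 10 collagen receptors and uptake genes, 2 were lower and 5 higher, against 18.2% and 30% of all genes. Itga11, a receptor subunit for fibrillar collagen, rose 7.11-fold, from 8.92 and 8.78 to 11.59 and 11.76, but not at its dimmer probe (log2 change 0.21). Ddr2, a receptor kinase that senses fibrillar collagen, rose 2.43-fold (14.44 and 14.01 against 15.51 on both berberine arrays), a call lost without either berberine array, and at its second probe as well (log2 change 1.48). Itga10 rose 2.34-fold, and Itga1 fell at least 2.21-fold.

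**Figure D5:**
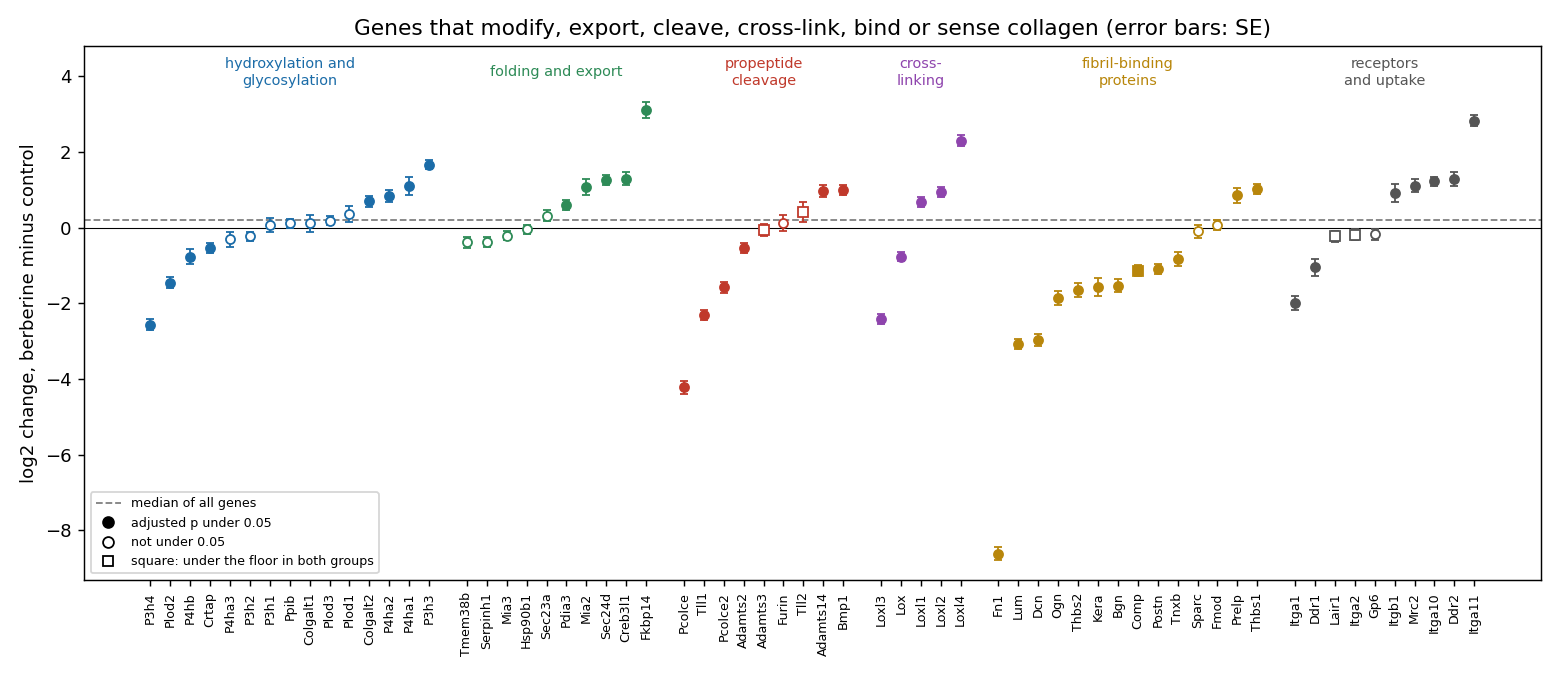
Log2 change (berberine minus control, y axis) of 63 genes that act on collagen, in 6 groups by step, with the SE of the limma fit as error bars, filled symbols for adjusted p under 0.05 and squares for genes under the floor in both groups. Fibril-binding proteins lie mostly below 0 and the other groups spread to both sides; genes with 1 group under the floor, such as Fn1, are drawn at fitted values, which are not bounds.

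Markers of cell types were read beside these results. In bulk samples such as these, fewer cells of a type and less RNA per cell cannot be told apart. Over all genes 18.2% were called lower and 30% higher. Both berberine arrays lay below both control arrays in 28.3% of all genes and above them in 49.2%. Of 8 measured fibroblast and preadipocyte markers, 4 were lower and 2 higher, with summed linear intensities of 469000 to 487000 in control and 382000 to 407000 with berberine. All 8 were above the floor, and Vim and S100a4 lay above 17 on the log2 scale on all 4 arrays and did not pass. Dlk1 and Fbln2 each fell 3.09-fold, Pdgfra 1.99-fold and Fap, which was dim, between 7.09 and 7.76, 1.48-fold. The 2 higher were Pdgfrb, which rose 2.06-fold, and Cd34, which rose 1.70-fold. Of 10 mature adipocyte markers 8 were lower and 1 higher, Slc2a4, which rose 1.49-fold. The sum of the 10 went from 580000 to 604000 in control to 31500 to 33500 with berberine. Sums for endothelial markers were 1330 to 1500 against 2070 to 2230 (7 of 7 measured, 4 higher), for epithelial markers 1250 to 1360 against 1610 to 1710 (5 of 6 measured, 1 higher and 1 lower, with 4 of the 5 lower on both berberine arrays and the sum led by Krt19 there), for leukocyte markers 10200 to 11500 against 3540 to 3650 (6 of 8 measured, 2 lower and 1 higher, led by Cd14) and for muscle markers 68200 to 73600 against 144000 to 187000 (3 of 6 measured, 2 higher, led by Acta2). Probes at 0 or less on any array had been left out, so no measured marker could read 0. Adgre1 and Cnn1 lay under the floor in both groups, and the part of these cell types in the collagen results was not tested.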

How the data were processed

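The deposited table holds probe intensity values on a linear scale from 1-colour arrays of Cy5-labelled RNA, per the labels' protocols. Not given in the sources used here were the scanner, background correction and scaling. Gene symbols came from the platform annotation: 20377 probes had 1 symbol, 2126 of them matched through an older symbol. A value of 0 or less on some array excluded 15 probes. Array medians differed by 0.81 on log2, so log2 intensities were quantile-normalized (limma 3.58.1, R 4.3.3), with no pseudocount. Before this step each control array had a higher median intensity than either berberine array. The gap in medians that scaling removes was therefore confounded with treatment. Whether that gap was technical or an effect of berberine was not tested. Berberine was compared with control by lmFit and eBayes, with 2 residual and 2.89 prior degrees of freedom and Benjamini-Hochberg adjustment over 26408 probes. Only 2 arrays per group limit the precision. Every collagen gene could be named, and in each pathway list the 4 members with the smallest p above the floor. Serpinh1, P3h1 and Comp were named outside this rule, after their values were seen. The members, classes, lists and floor were chosen with earlier results of these data known. Alternatives were other scalings, log2(value + 16), removal of dim probes, a replicate block, an intensity trend with robust prior, each array left out, an added 2-fold limit and averaging of a gene's probes.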

Additional observations from a re-analysis of the deposited data

How the results depend on the processing

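The counts of lower and higher genes were 7 and 10 for collagen and 22 and 21 for the genes acting on it, and 4674 and 7164 for all probes. The lower collagen count was 4 after centring, and the higher count was 5 in the deposited values and 4 with a 2-fold limit. Of the genes acting on collagen, 13 were higher in the deposited values and 13 with the 2-fold limit. Over all probes, 2396 were higher in the deposited values, and 2943 were lower and 2863 higher with the 2-fold limit. Leaving out each array gave 4 to 6 lower and 2 to 11 higher collagen genes, 10 to 21 and 5 to 19 of the genes acting on it, and 2128 to 4242 and 1218 to 6545 probes, with the lowest counts without a berberine array. Each of these fits held the same number of arrays, and the cause of the lower counts was not tested.

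Class medians moved mostly with the scaling. In the deposited values they were -0.39 (fibrillar, against 0.13), -0.26 (type IV, 0.08), -0.54 (type VI, -0.02), -0.17 (FACIT, 0.08) and -0.36 (transmembrane, 0.03), where the median of all genes moved as well. After centring they were 0.31 (type IV), 0.40 (FACIT), 0.20 (transmembrane) and 1.26 (other), and after scaling on the 75th percentile -0.08 (fibrillar), -0.23 (type VI), -0.06 (transmembrane) and 1.00 (other). Without dim probes, where fewer genes enter, type IV was at 0.18 and other collagens at 0.51, and with probes of a gene averaged type IV was at 0.21. Leaving out each array gave 0.01 to 0.27 for fibrillar, 0.02 to 0.20 for type IV, -0.09 to 0.05 for type VI, -0.03 to 0.04 for FACIT, -0.01 to 0.06 for transmembrane and 0.78 to 0.86 for other collagens. Of the called genes recomputed under each alternative, Col4a1 (0.06) and Lox (0.01) changed sign, both after centring. Several genes that were not called changed sign as well, among them Col12a1 (-0.24, and 0.42 after centring) and Col11a2 (0.13, and -0.40 in the deposited values).

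With the replicate number as a block, 10 collagen genes were lower and 11 higher, and all 17 calls were kept. The replicate numbers are not stated to pair samples, so the main fit used no pairing. Deviations of same-numbered arrays correlated at 0.00352, which with 2 arrays per group cannot show that samples were unpaired. Dim probes limit Col1a1, Col27a1, Col10a1, Col8a2 and Col6a6, whose levels lie near the floor in at least 1 group.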
